A study of Homo sapiens with 4 samples.

Results

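The strong narrow open regions of wild-type HEK293T cells were sharp ATAC-seq peaks, chosen by 2 measured values of the wild-type peak list: a fold enrichment of at least 8 and a width under 700 bp. Only autosomes other than chromosome 19 were used. The rule selected 4125 peaks, which were 8.11% of the 50883 peaks of the list and 8.80% of the 46875 peaks on those 21 chromosomes. Fold enrichment is the number of fragments over the summit, the base with the most fragments, divided by the local background, with 1 added to each. The other peaks of the same chromosomes fell into 3 classes by the same limits: 10366 strong wide, 24877 weaker narrow and 7507 weaker wide peaks.

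Accessibility was measured in HEK293T, an aneuploid human embryonic kidney line, in 2 wild-type (WT) libraries and 2 libraries of bulk MORC2 knockout (KO) pools, 1 guide RNA per pool. The WT cells carry no knockout guide in the labels. The peak list is 1 call on both WT libraries together, so no peak has a value per library, a spread between replicates or a test. The total promoter count, the only depth the counts give per library, was 10072386 and 9435801 in the WT libraries. The KO libraries entered no value below, and accessibility of these regions in KO cells was not analysed here.

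In ATAC-seq the transposase Tn5 cuts and tags DNA that is not wrapped in nucleosomes, so fragments pile up over open sites. Such sites are known at promoters, enhancers and insulators, where bound transcription factors keep nucleosomes away. A short stretch of open DNA tends to give a narrow peak, and a broad or compound open region a wide one. Among the selected peaks the called width also rose with the number of fragments, as given below. The parts of open length and fragment number in the width were not tested. The peak positions are on CHM13, a telomere-to-telomere human assembly, counted from 1. Genes and sequence at these positions were not analysed here.

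Among strong narrow peaks the fold enrichment ran from 8.002 to 38.4, with a median of 9.62 and quartiles of 8.71 and 11.0. These values chose the peaks and are a description. Many members lay close to the limit: 1406 (34.1%) were under 9, whereas 113 (2.74%) reached 15 and 14 reached 20. Fold enrichment and p-value together gave back a whole fragment count at the summit, the summit pileup, and the local background for all 4125 members. The median summit pileup was 67 fragments (quartiles 52 and 89, range 40 to 585) over a median background of 5.70 fragments. Strong wide peaks had a median pileup of 175 over a background of 15.2, and weaker narrow peaks a median of 26 over 4.97. By median, strong wide peaks had both values higher than strong narrow peaks, and weaker narrow peaks had both lower. Pileup and background make up the fold enrichment that the rule used, so these values describe the rule.

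The lowest background in the list was 4.03 fragments, the genome-wide level below which MACS2 does not go. It was the background of 595 members (14.4%), of 1.21% of strong wide peaks and of 29.7% of weaker narrow peaks. At these depths the limit of 8 was not sharp. From the exact Poisson interval of the pileup with the background held fixed, which covers counting error only, 2578 members (62.5%) had a lower 95% bound under 8. In turn 5310 weaker narrow peaks (21.3%) had an upper bound of at least 8.

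**Figure D1:**
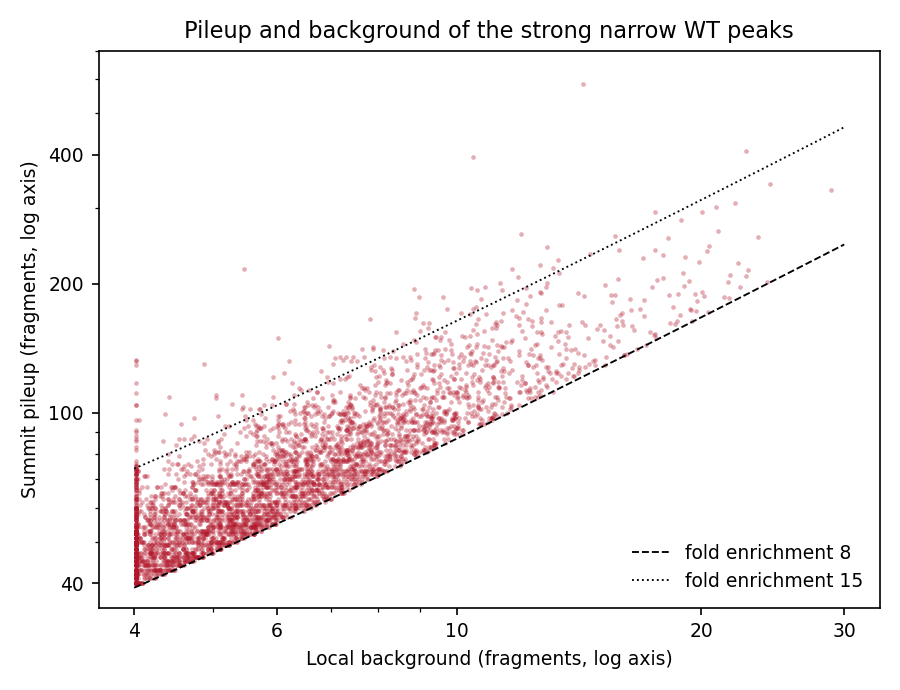
Summit pileup (vertical) against local background (horizontal), both in fragments on log axes, for each of the 4125 strong narrow WT peaks, 1 point per peak, with lines at fold enrichment 8 and 15. The column of points at the left edge holds the 595 peaks at the background floor of 4.03, and few points lie above the line at 15.

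The highest fold enrichment was 38.4 (95% counting interval 35.3 to 41.6), at chr11:10594417-10594814. This 398 bp peak had 585 fragments over a background of 14.3, the largest pileup of any member, and its summit lay 64 bp from its right edge. The next, chr7:103907325-103907737, had 395 fragments over 10.5 and a fold enrichment of 34.6 (31.2 to 38.1). The third was chr21:2810158-2810829, where 217 fragments stood over a background of only 5.46, giving 33.8 (29.4 to 38.5).

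The peaks ranked from 4th to 8th all had a background at the floor and pileups of 111 to 133 fragments, so they were ordered by pileup alone. They were chr13:9212844-9213486 with a fold enrichment of 26.7, chr9:39823467-39824058 with 26.5, chr21:3113887-3114503 with 25.9, chr16:28706730-28707290 with 23.5 and chr7:76441351-76441930 with 22.3. Their intervals overlapped, from 18.4 at the lowest bound to 31.6 at the highest, so their order is not resolved. The remaining members of the highest 10 were chr1:120571720-120572317 at 22.3 and chr1:148335526-148336157 at 21.4. Of the 14 members that reached 20, 7 had their background at the floor.

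At the fold enrichment limit the nearest members were chr6:85091677-85092188 and chr7:72052582-72053092, each with 41 fragments, and chr6:144767842-144768223 with 47, all 3 at 8.002. The nearest peaks outside were chr17:83319258-83319950, chr17:38493396-38493638 and chr22:29708935-29709439, at 7.999, 7.997 and 7.997, with 88, 62 and 60 fragments. At the width limit 17 members were 699 bp wide and 14 strong peaks were 700 bp wide. The first members by position at 699 bp were chr1:117367072-117367770, chr1:146461218-146461916 and chr1:182777261-182777959. The first peaks just outside were chr1:207228371-207229070, chr1:234066577-234067276 and chr10:22105678-22106377. Peaks on either side of each limit had overlapping counting intervals of fold enrichment.

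Widths of strong narrow peaks ran from 189 bp, the smallest width in the whole list, to 699 bp, with a median of 509 bp and quartiles of 389 and 600 bp. Weaker narrow peaks were mostly shorter, with a median of 336 bp. The widths of members did not spread evenly. In 20 bp steps, counts were high at 340 to 360 bp (205 peaks), low at 420 to 440 bp (134 peaks) and highest at 500 to 520 bp (280 peaks). Weaker narrow peaks had a low at the same 420 to 440 bp and a smaller rise at 460 to 480 bp. The count of strong peaks passed the 700 bp limit without a step, so that limit divides a continuous range.

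**Figure D2:**
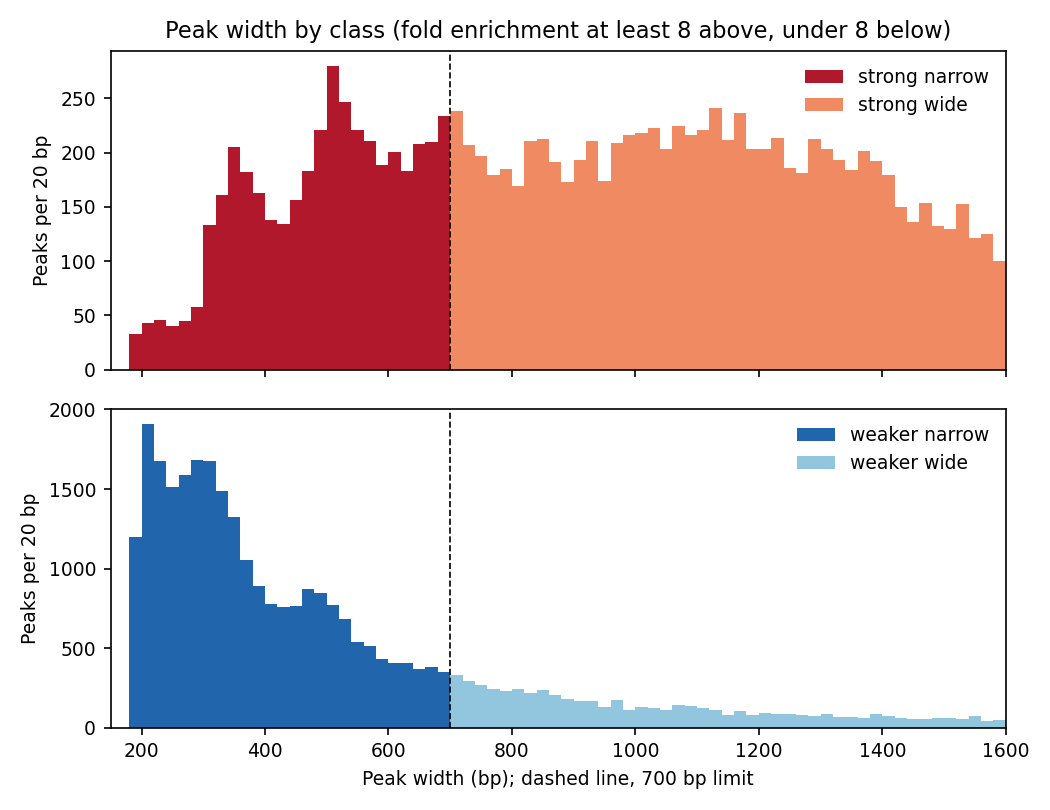
Number of peaks per 20 bp of peak width (bp), with strong narrow and strong wide peaks above and weaker narrow and weaker wide peaks below, cut off at 1600 bp; the dashed line is the 700 bp limit. Strong narrow peaks have highs at 340 to 360 bp and 500 to 520 bp with a low between them at 420 to 440 bp, and counts run on across the limit.

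Wider members had more fragments. The 265 members under 300 bp had a median pileup of 52 over a background of 4.35, and the 1036 members of 600 to 700 bp had 78 over 6.75. The median fold enrichment moved less, from 9.17 to 9.90.

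The summit, whose position the rule did not use, was central in most members. It lay in the central 33.3% of the peak's width in 2647 of 4125 (64.2%, 95% Wilson interval 62.7 to 65.6), against 63.4% of strong wide, 41.2% of weaker narrow and 48.4% of weaker wide peaks. Of the 4125 narrow peaks with the highest summit pileup, a set that overlaps the members, 65.0% had it there. Among members the median distance from the centre was 55 bp, and 45.7% had the summit within 50 bp of the centre. In 8 members (0.194%) it lay in the outer 10% on either side, against 8.38% of weaker narrow peaks. These intervals cover counting error only, and neighbouring peaks are not independent.

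This difference was smaller at like pileup. Among narrow peaks with a pileup of 40 to 49 fragments, the summit was in this central part in 56.1% of strong and 52.5% of weaker peaks, whose median widths were 417 and 414 bp. From 100 to under 150 fragments the shares were 73.4% and 62.2%, at unlike median widths of 577 and 503 bp. Median backgrounds there were 9.52 and 21.6 fragments. At like pileup, strong and weaker narrow peaks are divided by background alone, a value the rule used. The difference between strong and weaker narrow peaks was smaller in both of these groups than over all narrow peaks. It did not rise steadily with pileup. At 50 to 59 fragments the shares were 59.1% and 55.8%, and at 150 or more they were 68.7% and 60.7%.

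Summits had no preferred side. They lay left of the centre in 50.7% of members (49.2 to 52.2), and on the side of the nearest other peak in 49.2% (47.6 to 50.7). The share toward the neighbour was 44.1% among the 59 members with a neighbour within 1 kb and 46.4% among the 209 whose nearest peak was over 100 kb away.

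The distance from the summit to the nearer edge had 2 highs in strong narrow peaks, at 100 to 120 bp (482 peaks) and at 220 to 240 bp (416 peaks), with a low of 237 peaks at 160 to 180 bp. Weaker narrow peaks had 1 high, at 80 to 100 bp. The 2 highs went with width. Members of 300 to 400 bp had the summit at a median of 112 bp from one edge and 237 bp from the other, and 45.4% of these 844 had it in the central part. Members of 500 to 600 bp had it at a median of 226 and 316 bp from the edges, and 71.6% of these 1148 had it there. The 265 members under 300 bp were as central, at 73.6%. Peaks near the first high in width were thus more lopsided about their summit than those near the second.

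**Figure D3:**
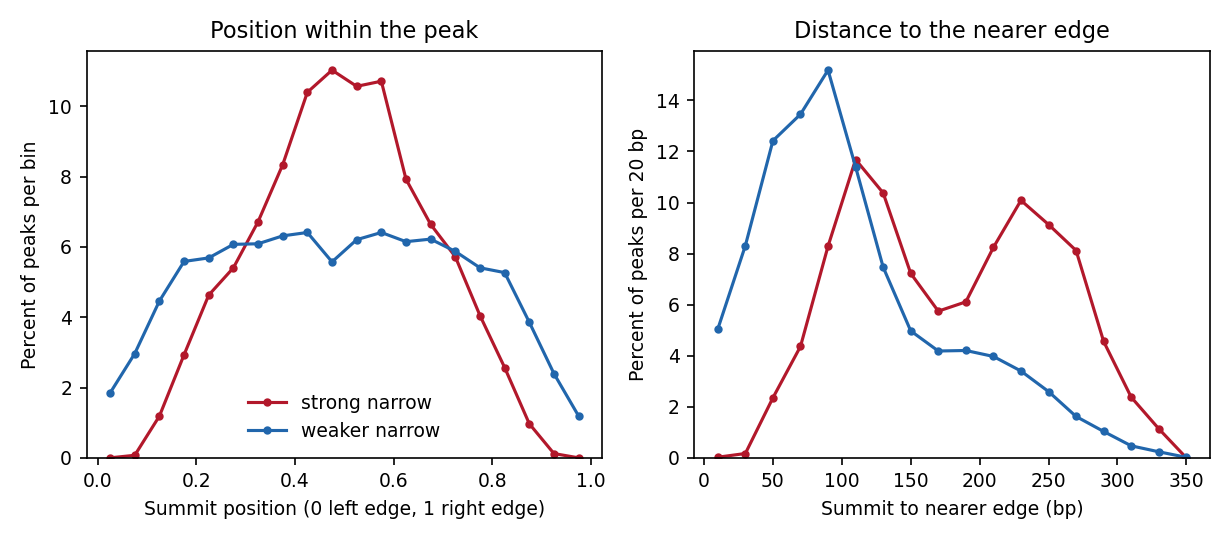
Left, summit position within the peak (0 is the left edge and 1 the right edge) as a percent of peaks per bin; right, distance from the summit to the nearer edge (bp) as a percent of peaks per 20 bp, for strong narrow and weaker narrow peaks. Strong narrow peaks are concentrated at the centre and have highs at 100 to 120 bp and 220 to 240 bp, where weaker narrow peaks are flat across the middle and have 1 high at 80 to 100 bp.

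Strong narrow peaks stood farther from other peaks than the other classes did. The gap to the nearest other peak of any class, edge to edge, had a median of 15.7 kb (95% interval 15.0 to 16.3; quartiles 8.02 and 32.5). The medians were 14.1 kb for strong wide (13.8 to 14.5), 10.6 kb for weaker narrow (10.3 to 10.8) and 7.61 kb for weaker wide peaks (7.38 to 7.90). Another peak lay within 10 kb of 1373 members (33.3%, 31.9 to 34.7), against 36.5%, 48.3% and 58.8% in the other classes in that order. The members' median was above that of weaker narrow and of weaker wide peaks on 21 of 21 chromosomes, and above that of strong wide peaks on 17. Fold enrichment contains the local background on every chromosome, so these counts describe the rule and are no separate support. Chromosome medians for members ran from 9.42 kb on chromosome 22 to 20.5 kb on chromosome 4.

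This distance is not independent of the rule. By default MACS2 takes as local background the larger of the genome-wide level and the mean over the 10 kb around a site, so fragments of a close neighbour raise it and lower the fold enrichment. When the same number of narrow peaks was instead taken by highest summit pileup, 2244 (54.4%) were shared with the members. The median gap then was 6.70 kb (6.39 to 7.01), below that of weaker narrow peaks, and 61.7% had another peak within 10 kb. The 1881 peaks that only the pileup ranking took had a median background of 15.2 and a gap of 2.86 kb. The 1881 that only fold enrichment took had a median pileup of 51, a background of 4.47 and a gap of 21.2 kb. The larger gap of the strong narrow class thus held for the ranking by fold enrichment and not for the ranking by pileup. The 1881 peaks taken by pileup alone are weaker narrow peaks by the rule, a class that was not redefined for this ranking.

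At like pileup, strong and weaker narrow peaks are divided by the background alone, so their gaps there are a description of the rule. With 60 to 79 fragments, strong narrow peaks had a median background of 5.98 and a gap of 15.4 kb, and weaker narrow peaks 10.7 and 3.87 kb. Members with a neighbour 1 to 5 kb away had a median pileup of 87 over a background of 8.42. The 209 members over 100 kb from any peak had 55 over 4.21, and 43.1% of them were at the background floor.

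**Figure D4:**
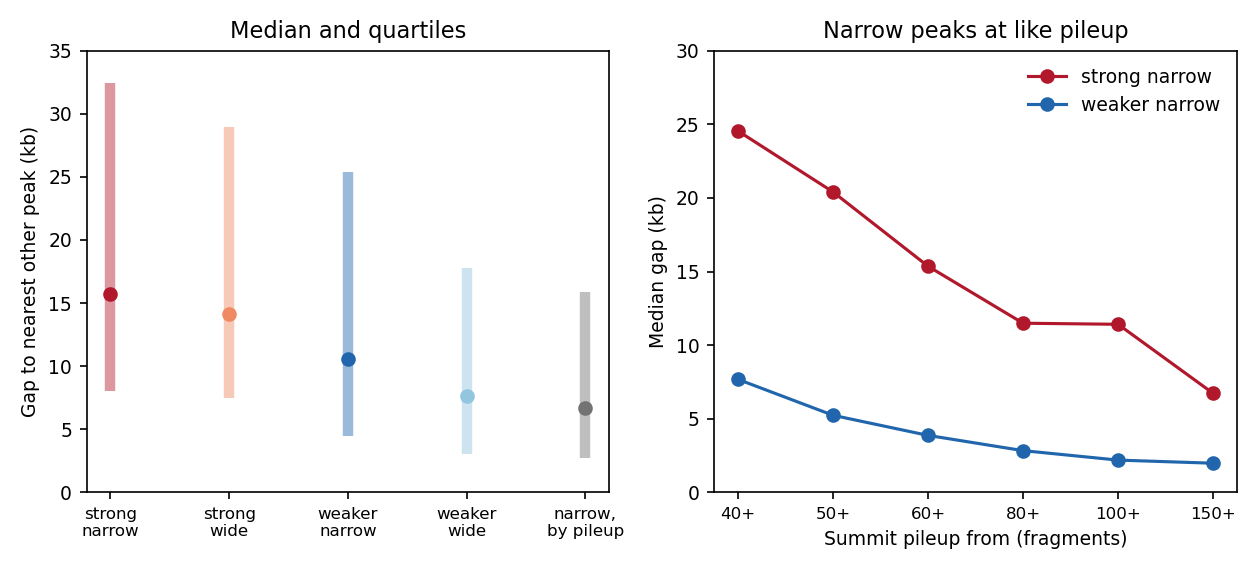
Left, gap to the nearest other peak (kb) as median (point) and quartiles (bar) for the 4 classes and for the 4125 narrow peaks of highest summit pileup; right, median gap of strong and weaker narrow peaks by summit pileup (fragments), each group running from its label to the next. Strong narrow peaks have the largest median, 15.7 kb, and the pileup ranking gives 6.70 kb; at like pileup the rule divides strong from weaker peaks by background alone, which sets the order of the lines on the right.

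The most isolated member was chr6:59534329-59534582, a 254 bp peak of 82 fragments at the background floor, whose nearest peak, another member, was 1.58 Mb away. The longest stretch of chromosome 6 without any peak, 3.50 Mb, began at the right edge of this member. Next by gap were chr16:68013562-68013901, at 1.06 Mb, and chr10:109801697-109802267, at 934 kb, each with 52 fragments at the floor. The closest neighbours stood 200 bp from chr7:16790440-16791120, 201 bp from chr7:58112241-58112915 and 213 bp from chr4:41666553-41667034, and all 3 were weaker narrow peaks. Near chr7:58112241-58112915, the longest stretch of chromosome 7 without any peak, 6.15 Mb, began at position 58113660. What left these stretches without peaks was not tested. No 2 peaks of the list were less than 190 bp apart, so sites closer than that would be in 1 peak.

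The nearest peak was itself a strong narrow peak for 493 members (11.95%, 11.0 to 12.98), where that class was 8.80% of peaks. It was strong wide for 24.4% (22.1% of peaks), weaker narrow for 50.9% (53.1%) and weaker wide for 12.8% (16.0%). Among strong wide peaks the nearest was strong narrow for 9.88%. Members and neighbours were classed by the same fold enrichment, and a close neighbour raises a member's background. These shares are therefore not independent of the rule. A shared neighbourhood counts both ways when 2 members are each other's nearest peak, so the 493 are not separate observations. The spacing between members is a description, since they are 8.80% of peaks and the rule uses a background that close neighbours raise. Successive members on a chromosome were a median of 321 kb apart, 81 of 4104 such steps were within 10 kb, and no 3 members followed each other at that distance.

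Members were found on all 21 chromosomes, from 59 on chromosome 21 to 462 on chromosome 1. As a share of the chromosome's peaks they were fewest on chromosome 17 (6.24%, 5.31 to 7.31), then 22 (6.31%) and 16 (6.51%), and most on chromosome 4 (10.7%, 9.49 to 12.1), then 3 (10.1%). Neighbours in the order had overlapping intervals, whereas the intervals of chromosomes 17 and 4 did not overlap. These intervals cover counting error only, and both chromosomes were picked as the ends of the order. Per Mb between the first and last peak, members ranged from 0.984 on chromosome 18 to 1.89 on chromosome 6. Of the strong peaks, 21.7% were narrow on chromosome 17 and 34.3% on chromosome 21. HEK293T is aneuploid, and DNA copy number and accessibility cannot be told apart in a pileup.

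Peak density and background differed between the chromosomes at the ends of this order. Chromosome 17 had 26.9 peaks per Mb, a median member background of 6.52 and 4.26% of members at the floor. Chromosome 4 had 11.6 peaks per Mb, a background of 4.90 and 22.6% at the floor. Chromosomes 22, 16 and 20, next lowest in share, had member backgrounds of 6.90, 6.71 and 6.50, and chromosome 3, second highest, had 5.32. Not every chromosome followed the same order. Chromosome 18 had the lowest background (4.71), 31.6% at the floor and 11.7 peaks per Mb with a share of 8.395%, and chromosome 6 had 19.4 peaks per Mb with a share of 9.75%. The part of density and background in the shares was not tested. With narrow peaks ranked by pileup, the share was 10.6% on chromosome 17 and 6.27% on chromosome 4, so that these chromosomes changed order, and chromosome 21 was highest at 11.5%.

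**Figure D5:**
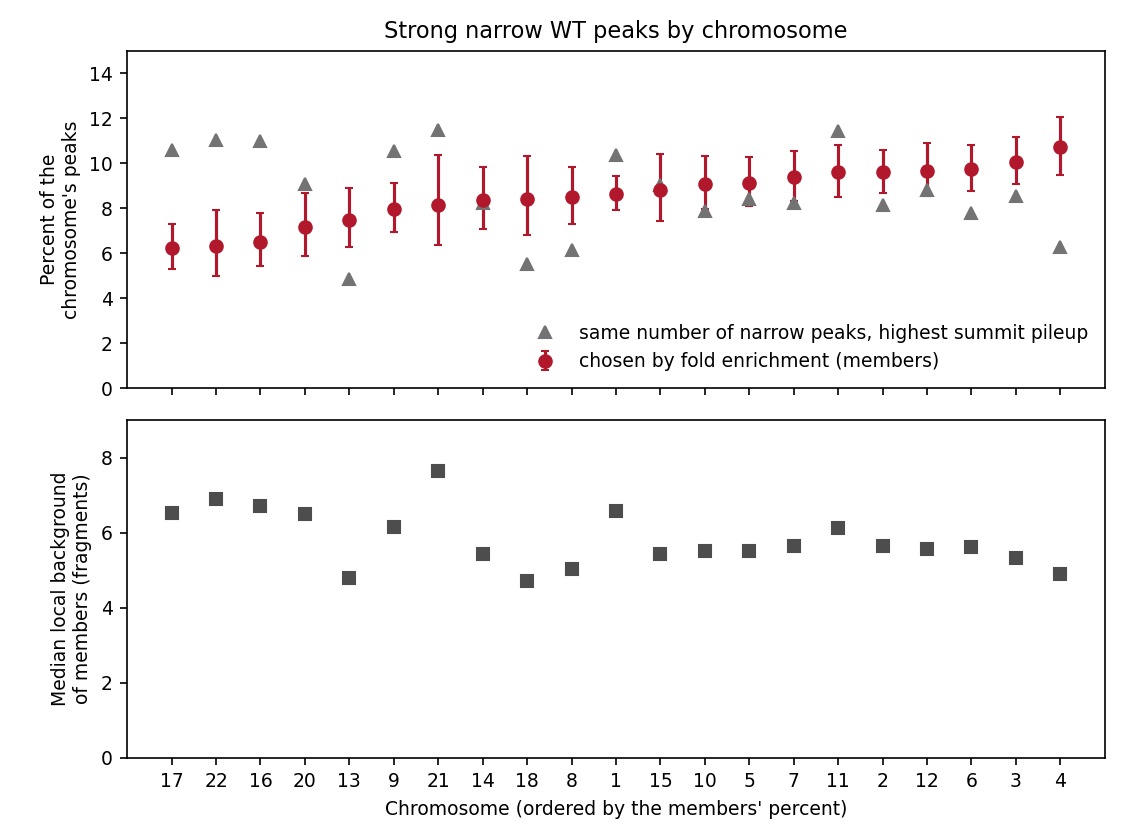
Above, strong narrow peaks as a percent of each chromosome's peaks (circles, with 95% Wilson intervals) and the same number of narrow peaks ranked by summit pileup (triangles), for 21 chromosomes in order of the circles; below, the median local background of the members in fragments. Circles rise from 6.24% on chromosome 17 to 10.7% on chromosome 4, and the triangles of those chromosomes stand in the opposite order.

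Along the chromosomes, members were counted in windows, with no other set of peaks of equal size beside them. Of 2577 windows of 1 Mb with any peak, 1794 (69.6%) held a member, 686 of them exactly 1. The fullest window, chr6:32000001-33000000, held 12 members among 42 peaks, and 14 windows held 8 or more. With each chromosome's span cut into 10 equal parts, the last part held 11.1% of members and 11.4% of strong wide peaks, against 14.7% of weaker narrow and 18.2% of weaker wide peaks. The longest stretch without a member was 32.3 Mb on chromosome 9, within which 28.1 Mb held no peak of any class.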

How the data were processed

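ATAC-seq libraries of HEK293T cells (2 WT, 2 MORC2 KO) were used as deposited. The authors trimmed reads, aligned them with bowtie2 to CHM13, filtered pairs by mapping quality and removed duplicates with Picard. MACS2, run on read pairs, gave the authors 1 peak list for both WT libraries. Deposited fold enrichment is a ratio of summit pileup to local background, and the deposited −log10 p-value and q-value are those of MACS2 at the summit. The deposited promoter counts, raw fragments per promoter in 28775 rows, gave library totals only.

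Pileup and background were solved for each peak from fold enrichment (pseudocount 1) and the Poisson −log10 p within a relative tolerance of 1e-05. The step was tested on simulated data. Gaps were edge to edge. Intervals were 95%: Wilson for shares, order statistics for medians, exact Poisson for pileups. Python 3.11.15, scipy 1.17.1 and pandas 2.3.3 were used. No hypothesis test was run.

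Members and classes were chosen with earlier results of these data known. Regions named are the 10 of highest fold enrichment, the 3 nearest inside and outside each limit, the 3 largest and 3 smallest gaps, the fullest 1 Mb window and the chromosomes of highest and lowest share. Others were named after their values were seen. Alternatives changed the fold enrichment, width and q limits, the neighbours and distances, the summit measure and the chromosomes. Ranking by pileup and the comparisons at like pileup were chosen after seeing the data. Sequence and gene annotation on this assembly were not used here.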

Additional observations from a re-analysis of the deposited data

How the results depend on the processing

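No paired analysis was possible because the peak list pools both WT libraries, and for the same reason no library could be left out. The limits set the values by construction. Fold enrichment of at least 6 gave 8770 peaks, a median gap of 14.5 kb, 36.6% within 10 kb of another peak, 60.1% of summits in the central 33.3% of the width and a highest chromosome share of 20.8%, on chromosome 3 in place of 4. At least 10 gave 1719 peaks, 17.1 kb, 28.9% and 5.29%. Width under 500 bp gave 1941 peaks, 16.97 kb, 30.3%, 56.5% of summits and 5.21%, again on chromosome 3. Width under 1000 bp gave 7091 peaks, 15.0 kb, 65.7% of summits and 18.4%. With peaks of −log10 q under 10 removed from the list, the gap was 20.9 kb, 25.4% had a neighbour within 10 kb and the highest share was 16.0%. Summit to summit the gap was 16.4 kb, and 148 kb with members alone as neighbours. Within 1 kb the share with a neighbour was 1.43% and within 100 kb 94.9%, and 45.7% of summits were within 50 bp of the centre. Adding chromosomes 19 and X moved no share or gap beyond its counting interval. In 7 settings, those reported and those with another fold enrichment, width or q limit or other chromosomes, the members' median gap was above that of the other 3 classes. Each of these settings selected by fold enrichment, so this order is not independent of the rule. Ranking by pileup, chosen after seeing the data, gave a gap of 6.70 kb and 61.7% within 10 kb. That gap was below that of weaker narrow peaks as the rule defines them, a class that shares peaks with this ranking. Most members are within counting error of the fold enrichment limit, and nothing here measures variation between WT libraries. The effect of depth on membership was not tested.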

Other observations

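Outside the chromosomes used, 140 of 2209 peaks on chromosome 19 met the same limits of fold enrichment and width (6.34%, 95% Wilson interval 5.396 to 7.43), with a median gap of 9.39 kb and a median background of 7.96 fragments. On chromosome X 149 of 1794 peaks did (8.31%), with a gap of 16.0 kb and a background of 5.07. The summit was in the central 33.3% of the width in 66.4% and 64.4% of them. None of the 5 mitochondrial peaks met the limits.

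Closeness to long peak-free stretches is given as a description, chosen after the positions of the members of highest fold enrichment were seen, and a background at the floor goes with few peaks nearby by construction. Within 5 Mb of the edges of the longest peak-free stretch of their chromosome lay 281 members (6.81%), 6.63% of strong wide, 4.61% of weaker narrow and 5.10% of weaker wide peaks. Of the 14 members with a fold enrichment of at least 20, 6 lay there, and of the 99 from 15 to 20, 8 did. Their 95% Wilson intervals, 21.4 to 67.4% and 4.15 to 15.1%, cover counting error only.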
